A study of Mus musculus with 23 samples.

Results

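The genes described here are the fatty acid elongases Elovl1, Elovl3, Elovl5, Elovl6 and Elovl7, the stearoyl-CoA desaturases Scd1 and Scd2, and the fatty acid desaturases Fads1, Fads2 and Fads3. They were chosen by symbol, and all 10 were found among the 24029 genes of the deposited table. RNA came from C3H10T1/2, a mouse mesenchymal stem cell line of the C3H strain, as pre-adipocytes (day 0) and as mature adipocytes (day 7). All cells had been grown with 8.3 nM human recombinant BMP7 for 3 days before differentiation began. Day 7 cells then received DEX (5 uM) and IBMX (0.5 mM) up to day 2. Insulin (0.12 ug/ml), Rosi (1 uM) and T3 (1 nM) were in their medium up to day 7. The series compares a standard library procedure, in which poly(A) RNA was captured and copied with random hexamers, with TELP, the method that gives the series its title. The 6 RNA libraries were standard day 0, standard day 7, TELP N9 day 0, TELP N9 day 7, TELP N9_ss day 7 and TELP T18 day 7, with 1 library in each group. N9, ss and T18 are the submitters' own labels and are not spelled out. The standard day 0 and day 7 libraries are called the standard pair below, and those of TELP N9 the N9 pair. RNA came from whole cultures, so more RNA per cell and more cells of a type cannot be told apart.

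Fatty acids made in the cell leave the synthase mainly as palmitate, a saturated chain. Elongases of the endoplasmic reticulum then catalyse the condensation step that lengthens acyl-CoA chains, with a preference that differs between the members. Stearoyl-CoA desaturases place a double bond in saturated chains and give the monounsaturated fatty acids that are stored in triglyceride. Fads2 and Fads1 act in turn on the polyunsaturated chains that come from the diet. In fat cells Scd1 is known as a lipogenic gene, and Elovl3 is known for its high expression in brown fat.

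The libraries differed in depth and make-up. Depth, estimated from the steps of the low values, was 14400000 and 14200000 fragments for the standard pair at day 0 and day 7 and 22600000 for N9 day 0. It was 4760000 to 5760000 for the TELP libraries of day 7. At 1 RPKM (reads normalized by gene length and by library total) a transcript with 2 kb of countable length then rests on 9.53 reads in T18 and on 45.3 reads in N9 day 0. The T18 library stood apart, since 10 genes held 79.8% of its RPKM, against 7.56% to 32.8% in the others. N9_ss shared most low values with N9, with 89.7% of 2518 low genes at 1 common ratio within 0.1%, and was not counted as a replicate of it. The 9 adipocyte markers summed to 43.4 RPKM in standard day 0 and 33.8 in N9 day 0, and to 5247 to 33789.6 in the day 7 libraries. The 5 preadipocyte markers summed to 245 and 278 RPKM at day 0 and to 40.4 to 157 at day 7. At day 0 the chondrocyte markers summed to more than the adipocyte markers, as did the muscle markers in N9 day 0. Both hepatocyte markers were listed at 0 in every library. The 4 macrophage and leukocyte markers summed to 0.441 to 4.70 RPKM. Summed RPKM of 4 endothelial markers was 11.3 and 1.40 in the standard pair and 9.58 and 0 in the N9 pair, with day 0 first. It was 15.9, 6.15, 16.8 and 2.11 for 4 osteoblast markers in the same order. It was 52.5, 19.0, 77.0 and 5.35 for 3 chondrocyte markers, and 11.9, 5.20, 36.6 and 7.39 for 4 muscle markers, of which Ckm was at 0 throughout. Their part in the values of the members was not tested.

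The leading stearoyl-CoA desaturase was Scd2 at day 0 and Scd1 at day 7. Scd1, which makes oleate from stearate, had 35.4 RPKM in standard day 0 and 40.1 RPKM in N9 day 0. At day 7 it stood at 998 RPKM in the standard library, 6672 in N9, 6721 in N9_ss and 967 in T18. Every day 7 library lay far above both day 0 libraries. The ratio of Scd1 RPKM at day 7 to that at day 0 was 28.2 in the standard pair and 167 in the N9 pair. On the log2(RPKM + 1) scale, which understates the change of low genes, these differences were 4.78 and 7.34. By rank among all genes of a library, Scd1 stood at 1855 and 25 in the standard pair, at 1666 and 9 in the N9 pair, and at 26 in T18.

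Scd2, the isoform that many tissues outside fat and liver express, was already high at day 0, with 175 RPKM in the standard library and 184 in the N9 library. At day 7 it was at 287 RPKM in the standard library, 668 in N9, 660 in N9_ss and 120 in T18. The T18 value lay below both day 0 values and the others above them, so the groups overlapped. The difference between days was 0.71 log2 units in the standard pair, under the size of 1 unit that was taken as a call, and 1.85 in the N9 pair, past it.

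A ratio of 2 genes within a library does not change when all values of that library are multiplied by a common factor. Scd1 was at 0.202 of the level of Scd2 in standard day 0 and at 0.217 in N9 day 0. At day 7 the ratio of Scd1 to Scd2 was 3.47 in the standard library, 9.99 in N9, 10.2 in N9_ss and 8.07 in T18. Scd1 was thus above Scd2 in the standard, N9 and T18 libraries of day 7, and in N9_ss, which is not counted as a replicate of N9. In the 2 day 0 libraries it was below. As a share of the RPKM of the pair, Scd1 made up 16.8% and 17.8% at day 0 and 77.6%, 90.9%, 91.1% and 89.0% at day 7. The pair together summed to 211 and 225 RPKM at day 0, and to 1286 and 7339 in the standard and N9 libraries of day 7.

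**Figure D1:**
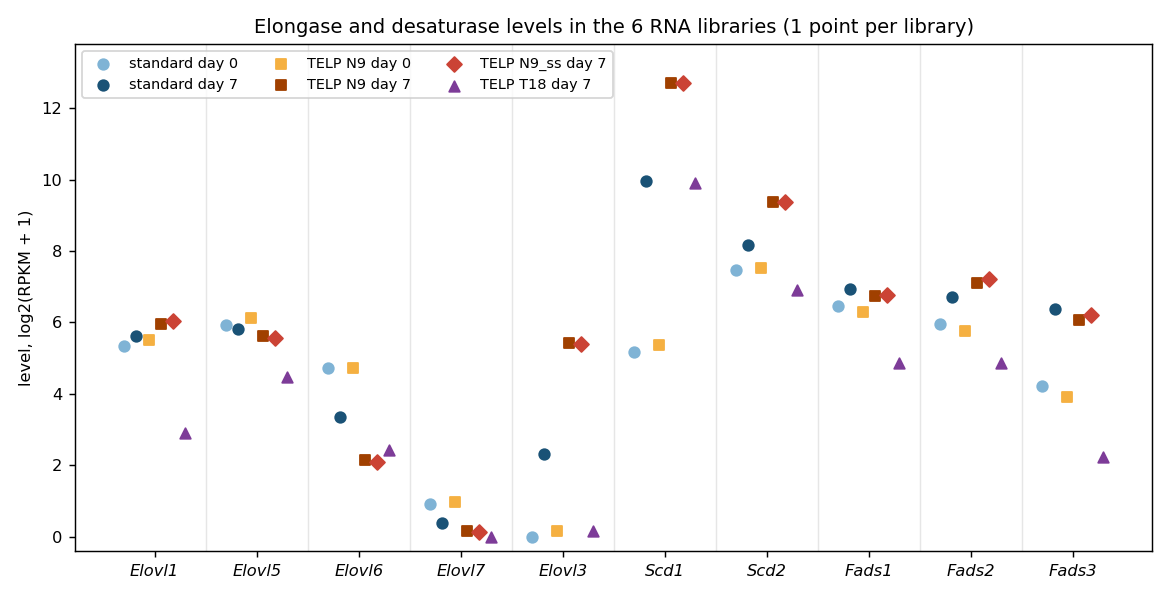
Level of each gene as log2(RPKM + 1) on the y axis, with 1 point for each of the 6 RNA libraries and no error bars because each group holds 1 library. Scd1 is at 5.19 and 5.36 units at day 0 and between 9.92 and 12.71 at day 7. Elovl6 is lower in every day 7 library, of which T18 has low values for most genes. Most T18 points (triangles) lie below the other day 7 points.

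Scd3 and Scd4, close relatives of Scd1, were also higher at day 7 in both pairs, at far lower levels. Scd3 was at 3.33 and 15.7 RPKM in standard day 0 and day 7, and at 6.62 and 144 in the N9 pair. Scd4 was at 1.61 and 7.94 RPKM in the standard pair and at 2.57 and 85.3 in the N9 pair. In T18 they were at 6.12 and 2.19 RPKM, within the range of the day 0 libraries. Reads of such copies can be split between them in counting, which was not tested, so values of all 4 Scd genes are uncertain. With all 4 Scd genes summed, Scd1 still made up 16.4% and 17.1% of the RPKM at day 0 and 76.2% to 88.4% at day 7.

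Among the Fads genes Fads3, a relative of Fads1 and Fads2, was the 1 called higher in both pairs. Fads3 was at 17.6 and 14.2 RPKM in the standard and N9 libraries of day 0. At day 7 it was at 82.7 RPKM in the standard library, 65.7 in N9, 73.0 in N9_ss and 3.70 in T18. T18 lay below day 0 and the other day 7 libraries above it. As deposited, the differences of 2.17 log2 units in the standard pair and 2.14 in the N9 pair lay within 0.04 of each other. Over the alternatives the N9 difference minus the standard one was between -0.57 and 0.33.

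Fads2, which starts the desaturation of essential fatty acids, was at 61.3 and 53.4 RPKM at day 0 in the standard and N9 pairs. It was at 105 RPKM in standard day 7, 137 in N9, 148 in N9_ss and 28.0 in T18. Its differences were 0.76 log2 units in the standard pair, short of a call, and 1.35 in the N9 pair. Fads1, which acts after Fads2, was at 87.5 and 76.9 RPKM at day 0, and at 122, 106, 108 and 27.8 at day 7 in the standard, N9, N9_ss and T18 libraries. Its differences of 0.48 and 0.46 log2 units were not called. The ratio of Fads1 to Fads2 was above 1 at day 0 and in standard day 7 and below 1 in the TELP libraries of day 7. It was 1.43 and 1.44 at day 0, 1.17 in standard day 7, 0.772 in N9, 0.725 in N9_ss and 0.995 in T18. The 3 Fads genes summed to 166 RPKM in standard day 0 and 144 in N9 day 0, and to 309.6 and 309 in standard and N9 day 7.

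The elongases differed in direction, Elovl3 being higher and Elovl6 lower at day 7. Their summed level was 126 and 116 RPKM in the standard pair and 139 and 155 in the N9 pair. Elovl6, which lengthens palmitate to stearate and so supplies the substrate of Scd1, was at 25.3 and 25.7 RPKM at day 0. At day 7 it was at 9.13 RPKM in the standard library, 3.44 in N9, 3.29 in N9_ss and 4.38 in T18, all below both day 0 libraries. The differences were -1.38 log2 units in the standard pair and -2.58 in the N9 pair. T18 values were low for most genes, with a median difference of -2.11 over all genes kept against N9 day 0. By rank Elovl6 was at 2644 in both T18 and N9 day 0. Relative to Elovl5 in the same library, Elovl6 had ratios of 0.424 and 0.166 in the standard pair, 0.376 and 0.0721 in the N9 pair, and 0.207 in T18. Scd1 and Elovl6 were at similar levels at day 0, with ratios of 1.40 and 1.56. At day 7 Scd1 was 109 times the level of Elovl6 in the standard library, 1937 times in N9 and 221 times in T18.

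Elovl3, which makes saturated and monounsaturated very long chains and is used as a brown fat marker, was listed at 0 in standard day 0 and at 0.105 RPKM in N9 day 0. At day 7 it was at 4.00 RPKM in the standard library, 41.9 in N9, 41.1 in N9_ss and 0.125 in T18. The standard, N9 and N9_ss libraries of day 7 were above both day 0 libraries, and T18 was at the level of N9 day 0. On the log2(RPKM + 1) scale Elovl3 was higher at day 7 by 5.28 in the N9 pair and by 2.32 in the standard pair, where no ratio is given because day 0 is listed at 0. After correction for depth, these values were near whole multiples of the T18 value, at 95 in standard day 7, 4 in N9 day 0, 387 in N9 and 397 in N9_ss, each within 0.0211 of the whole number. The T18 value may thus stand for as little as 1 read. The 6 brown fat markers had a summed level of 1.44 and 1.28 RPKM at day 0 and of 85.4, 634, 644 and 156 at day 7 in the standard, N9, N9_ss and T18 libraries. At day 0, 0 of the 6 reached 1 RPKM. At day 7, 4 did in the standard library and 3 in each of N9, N9_ss and T18. Ucp1, the uncoupling protein that defines brown fat, was at 0 in both libraries of day 0 and in the standard and T18 libraries of day 7. In N9 and N9_ss of day 7, 0 of the 6 markers were at 0, so Ucp1 was above 0 there. The part of brown fat markers in the level of Elovl3 was not tested.

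Elovl5, which lengthens polyunsaturated chains, was the highest elongase at day 0, at 59.8 and 68.2 RPKM, and was at 54.9, 47.8, 46.6 and 21.2 at day 7 in the standard, N9, N9_ss and T18 libraries. Its differences of -0.12 and -0.50 log2 units were not called. Elovl1, which acts on very long saturated chains, was at 39.8 and 44.5 RPKM at day 0 and at 47.8, 61.3, 64.6 and 6.53 at day 7, with differences of 0.26 and 0.45 that were not called either. Elovl1 was below Elovl5 on both days of the standard pair, at ratios of 0.665 and 0.871, and in N9 day 0 (0.653) and T18 (0.309). It was above Elovl5 in N9 day 7, at 1.28, and in N9_ss, at 1.39. Elovl7 was the lowest member at day 7. It was at 0.880 and 0.943 RPKM at day 0, at 0.297 in standard day 7, 0.108 in N9 and 0.103 in N9_ss, and was listed at 0 in T18. With a mean under 1 RPKM it was not kept by the filter in any comparison, so no difference was called.

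**Figure D2:**
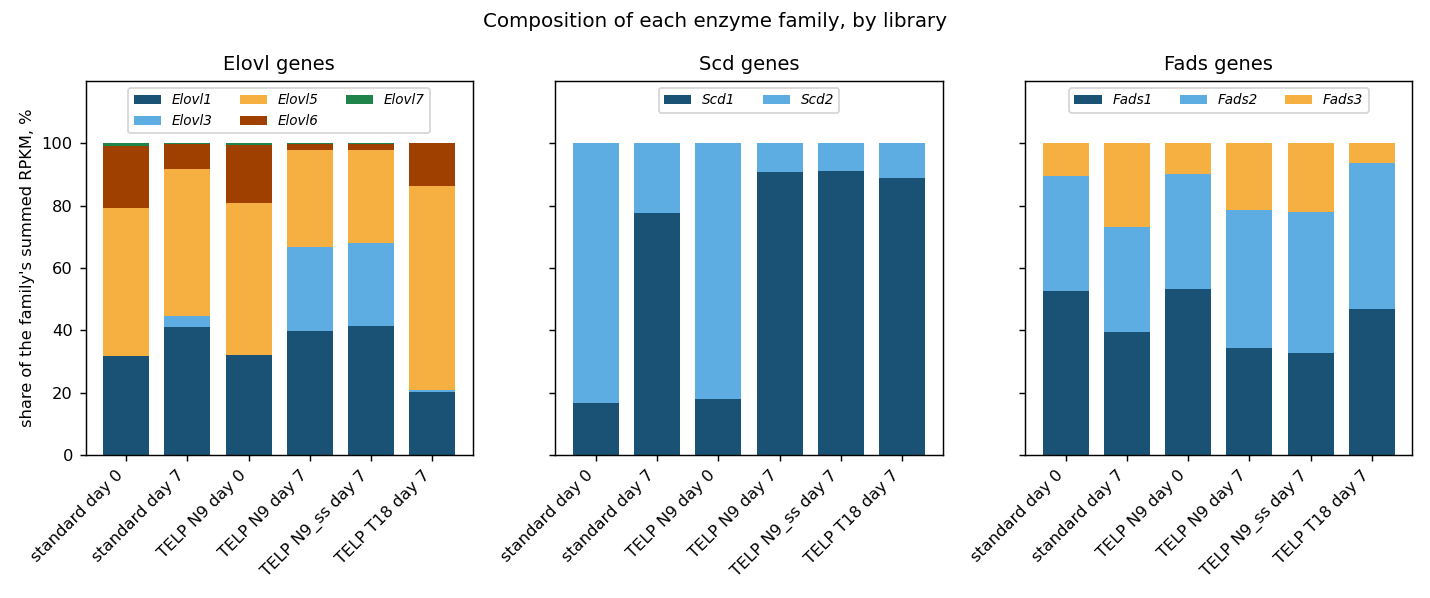
Share of each family's summed RPKM (y axis, percent) taken by each gene in each of the 6 libraries, for Elovl, Scd and Fads genes. Scd1 takes 16.8% and 17.8% of the Scd pair at day 0 and 77.6% to 91.1% at day 7, and Elovl6 takes 20.1% and 18.4% of the elongases at day 0 and 2.11% to 13.6% at day 7.

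Bases before the start site are shown for Elovl6 (lower at day 7), for Elovl5 (the highest elongase at day 0, with no call) and for Fads2 (called higher in the N9 pair). They come from RefSeq on the GRCm38.p6 build, read in the direction of the gene, and stop at the base before the annotated start. The promoter table held windows for 6 of the 10 genes (7 windows, 2 of them for Elovl1). Those of Elovl1, Elovl7 and Fads3 are not printed, because their upstream bases overlap the annotated span of the same gene. Elovl3, Scd1, Scd2 and Fads1 were the genes without an entry. Capitals mark matches, on either strand, to the motifs that were searched.

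Elovl6 (chr3:129532136-129532385, plus strand): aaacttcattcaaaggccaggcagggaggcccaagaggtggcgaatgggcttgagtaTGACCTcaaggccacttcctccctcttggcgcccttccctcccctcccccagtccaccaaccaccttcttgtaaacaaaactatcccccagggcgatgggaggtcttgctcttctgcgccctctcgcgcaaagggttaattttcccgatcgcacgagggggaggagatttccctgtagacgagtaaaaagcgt
Elovl5 (chr9:77917115-77917364, plus strand): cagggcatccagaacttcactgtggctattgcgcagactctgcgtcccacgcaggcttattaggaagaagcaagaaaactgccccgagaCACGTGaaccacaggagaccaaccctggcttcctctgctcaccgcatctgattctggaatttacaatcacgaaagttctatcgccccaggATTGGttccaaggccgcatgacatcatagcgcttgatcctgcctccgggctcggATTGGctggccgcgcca
Fads2 (chr19:10101504-10101753, minus strand): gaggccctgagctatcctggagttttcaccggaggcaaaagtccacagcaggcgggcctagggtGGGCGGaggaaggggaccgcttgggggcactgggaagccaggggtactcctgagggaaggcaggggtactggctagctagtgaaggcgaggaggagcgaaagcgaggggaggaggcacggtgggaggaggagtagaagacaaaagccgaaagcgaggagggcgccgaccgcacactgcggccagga

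The motifs were the sterol regulatory element of the LDL receptor gene, the CCAAT box CCAAT, the E-box CACGTG, the GC box GGGCGG, the nuclear receptor half-site AGGTCA, its direct repeats with 1 base (DR1) and 4 bases (DR4) between, and the TATA box TATAAA. The half-site is part of both repeats. Windows of 300 bases, from 250 before the start to 50 after it, were searched. In Elovl6 the only match was a reverse half-site beginning at -193, of a kind found in 16.3% of all 32851 windows. In Elovl5 there were 2 reverse CCAAT boxes, at -71 and -17, and an E-box at -161, where 37.4% and 7.15% of all windows hold such a match. In Fads2 a GC box stood at -186, against 35.7% of all windows. The windows of Elovl1, Elovl7 and Fads3, whose upstream bases overlap their own genes, also held GC boxes. CCAAT boxes stood in window 1 of Elovl1 (-35) and in Fads3 (-106 and -78). Window 2 of Elovl1 held a reverse half-site at -95. The sterol regulatory element was in 0 of the 7 windows and in 0.0913% of all windows, and DR1, DR4 and the TATA box were in 0 of the 7 as well, against 0.0396%, 0.0152% and 13.6% of all windows. A match is only a run of letters, and its absence says nothing of the factor.

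Counted together, 3 of the 9 genes kept were called higher in the standard pair at day 7 (Scd1, Elovl3 and Fads3) and 1 lower (Elovl6). Of all 11312 genes kept there, 8.22% were called higher and 6.53% lower. In TELP N9, 5 of 9 were called higher (Scd1, Elovl3, Fads3, Scd2 and Fads2) and 1 lower (Elovl6), against 13.9% and 29.9% of 11360 genes. In both library types at once Scd1, Elovl3 and Fads3 were higher, where 7.23% of genes were, and Elovl6 was lower, where 5.81% were. The median difference of the 9 was 0.71 in the standard and 1.35 in the N9 pair, and that of all genes kept was -0.18 and -0.45. Scaling by the median of ratios moved these medians of all genes to -0.01 in both pairs. The share of calls that were higher went from 55.7% to 68.6% in the standard pair, and in the N9 pair from 31.8% to 51.6%, with 17.8% under equal totals. Scd1, Elovl3, Fads3 and Elovl6 kept their calls under all 3 other scalings in both types. Among those not called, Elovl5 was between -0.17 and 0.08 in the standard pair over all settings. In the N9 pair Elovl5 was at -0.50 as deposited and at -1.01, past the size of a call, with equal totals. There, median of ratios put Elovl1 at 0.96 and Fads1 at 0.97, and equal totals put both at -0.050.

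**Figure D3:**
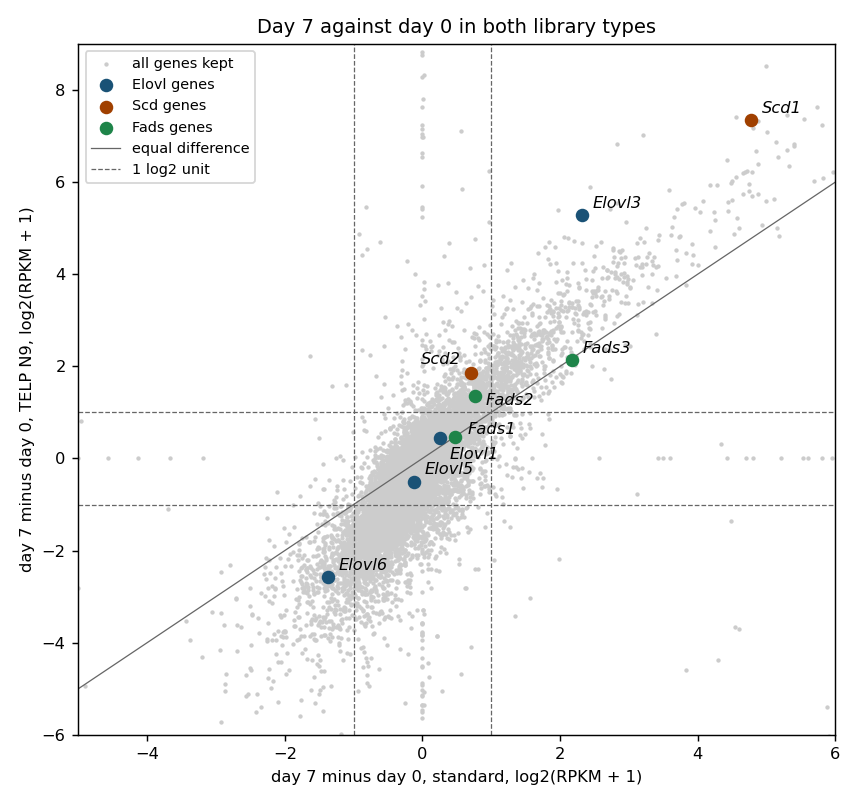
Difference between day 7 and day 0 on the log2(RPKM + 1) scale in the standard (x axis) and TELP N9 libraries (y axis) for all 11474 genes kept (grey) and the 9 members kept (coloured), with dashed lines at 1 unit. Scd1 and Elovl3 lie above the line of equal difference, Fads3 lies on it and Elovl6 is the only member past the dashed lines on the lower left; 145 grey genes lie outside the axes.

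**Figure D4:**
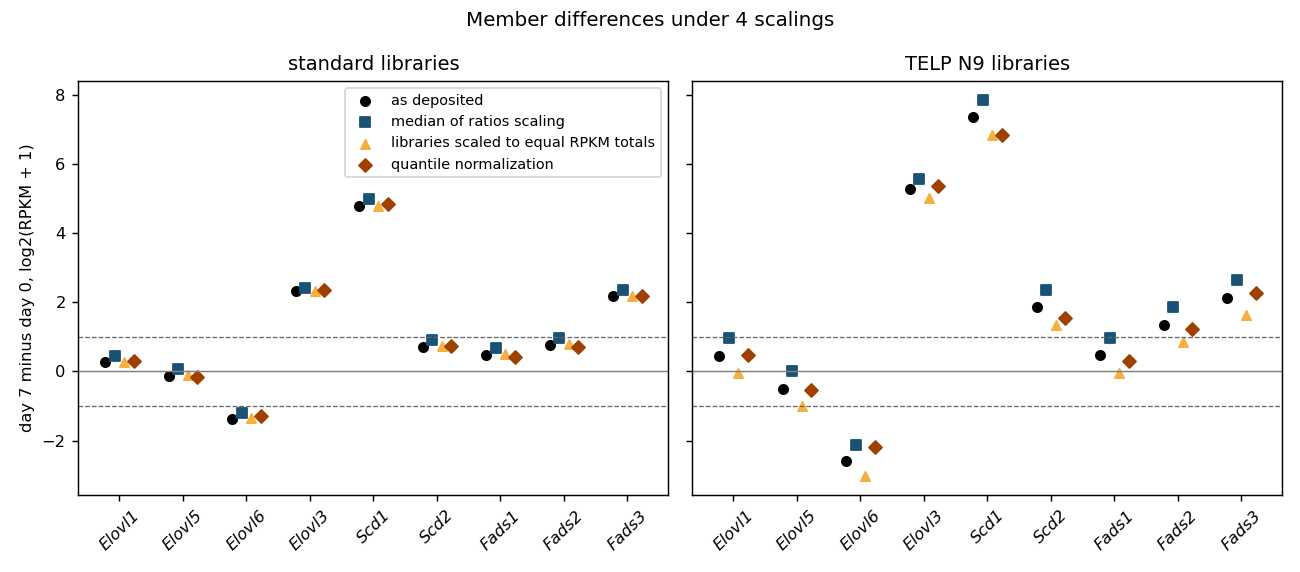
Difference between day 7 and day 0 (y axis, log2(RPKM + 1)) of the 9 genes kept, as deposited and under 3 other scalings, in standard (left) and TELP N9 libraries (right). Points of Scd1, Elovl3, Fads3 and Elovl6 stay past the dashed lines at 1 unit in both panels, while Fads2 drops to 0.84 in the N9 pair under equal totals.

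A model over both library types called 0 of the member genes at a false discovery rate of 0.05. Limma, fitted to the 4 standard and N9 libraries with library type as a block, had 1 residual degree of freedom. The block takes out the mean difference between library types. What is left as error is how far the 2 types disagree on the difference between days, and cultures do not enter it. Among all genes 0.715% were called higher and 0.105% lower. Of the 9 genes tested 0 passed, and 6 had an unadjusted p under 0.05, as did 3014 of all 11474 genes. The limma estimate was 6.06 ± 0.70 (SE) for Scd1 with an adjusted p of 0.0614, 2.15 ± 0.30 for Fads3 with 0.0755, 3.80 ± 0.79 for Elovl3 with 0.119 and -1.98 ± 0.42 for Elovl6 with 0.121. Estimates were 1.28 ± 0.41 for Scd2 (adjusted p 0.171 in limma) and 1.05 ± 0.34 for Fads2 (0.169). Those of Elovl1, Elovl5 and Fads1 had limma adjusted p values of 0.346 to 0.523. Without the block limma passed 0 of the 9 and 152 genes in all. With a library left out the block could not be kept, so both changed at once. Without the block and standard day 7, limma passed 6 of the 9 (Elovl3, Elovl6, Scd1, Scd2, Fads2 and Fads3) and 6037 genes in all. Without the block and N9 day 7 it passed 4 and 756 genes, and without the block and standard or N9 day 0 it passed 0 (799 and 722 genes at an unadjusted p under 0.05). An intensity trend in the prior variance, added after seeing the data, passed Scd1 alone of the members (limma adjusted p 0.0495).

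The library types gave different sizes for the same gene. At day 0, TELP N9 against standard gave differences of -0.29 to 0.19 log2 units for the 8 genes kept and 0 calls in either direction, where 2.2% of all genes were called higher and 0.718% lower. At day 7 TELP N9 was higher for Elovl3 (3.10 log2 units, 10.5 times the RPKM), Scd1 (2.74, 6.68 times) and Scd2 (1.21, 2.32 times), and lower for Elovl6 (-1.19). That is 3 of 9 higher and 1 lower, against 7.51% and 17% of all genes. Of all calls at day 7, 30.7% were higher, 47.5% when scaled by median of ratios and 5.31% with equal totals. Elovl1, Elovl5 and the 3 Fads genes differed by -0.33 to 0.39 there. The day 7 against day 0 difference was higher in the N9 pair than in the standard pair by 2.96 for Elovl3, 2.57 for Scd1 and 1.14 for Scd2. For Elovl6 the decrease was deeper in the N9 pair (-2.58 against -1.38), so the same subtraction gave -1.21. The value for Elovl3 rests on a library listed at 0 and was between 2.25 and 3.32 over the alternatives. All genes had 5.99% and 17.2% past 1 unit in those directions. The call on Elovl6 was lost under median of ratios, at -0.90, and quantile normalization, at -0.78. The call on Scd2 was lost with equal totals, at 0.61, and quantile normalization, at 0.77. Scd1 kept its call, at 1.04 under quantile normalization and 2.03 with equal totals. These differences were not tested, since each group holds 1 library.

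In T18 against N9 at day 7, 8 of 9 genes were called lower and 0 higher, but so were 83.4% of all genes, with 0.841% higher, and the median difference of all genes was -1.77. Under median of ratios 39.7% of calls over all genes were higher, against 1.00% as deposited. Elovl6 was the member not called, at 0.28, and 98.3% of all genes had a difference below its own. Elovl3 (-5.25) and Fads3 (-3.83) were the lowest, with 0.441% and 2.03% of genes below them. The others were Elovl1 at -3.05, Scd1 at -2.79, Scd2 at -2.47, Fads2 at -2.26, Fads1 at -1.89 and Elovl5 at -1.14. By rank, Elovl6 was at 2608 and 2644 in the day 0 libraries, 5761 in standard day 7, 7908 in N9 and 2644 in T18. Ranks of T18 rest on a library with fewer genes detected, 6797 at 1 RPKM or more against 10306 to 11306 in the others. Between N9_ss and N9, 0 of 9 genes were called, where 0.0194% of all genes were called higher and 0.00968% lower. In units of reads Elovl6 and Elovl7 had equal values within 0.1% in both columns, and the other 8 had 2.06% (Elovl5) to 16.1% (Fads3) more in N9_ss.

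The genes most like each member were found by the distance between centred profiles of log2(RPKM + 1) over 5 libraries, all but N9_ss. For Scd1 they were Ltc4s, Steap4 and Ces1d, at 0.80, 0.85 and 0.97 log2 units, where the median gene was at 7.46. For Elovl3 they were Abi3, Tpsab1 and Scd4 (0.61, 0.62 and 0.70, median 4.82), and for Elovl6 Apol9a, Adamts16 and Tmem47 (0.12, 0.18 and 0.25, median 2.05). Nearest to Fads3 were Vwa8, Adam12 and Pfkfb3 (0.43 to 0.64, median 2.79), to Scd2 Mrpl55, Rnf11 and Dolpp1 (0.14 to 0.24, median 2.18), and to Fads2 Abhd11, Mrps18a and Mtg1 (0.06 to 0.11, median 1.74). Profiles of Fads1 (Cdadc1, Cobll1 and Abca7), Elovl1 (Fam134a, Ints7 and Bop1) and Elovl5 (Ndnl2, Psmb1 and Myl4) had neighbours at 0.04 to 0.14. Among the 9 genes, Scd2 and Fads2 were the closest pair, at 0.71, and Scd1 and Elovl6 the farthest apart, at 8.90. With 5 libraries many genes come close to any profile, so these names describe likeness only.

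Genes that work beside the members were read from 7 lists. Called in both types, as for the members, means 1 log2 unit or more in the same direction, and the background is 7.23% higher and 5.81% lower, with medians over all genes of -0.17 and -0.46. Of 11 partners of the reactions 4 were higher and 1 lower. Hsd17b12, the ketoacyl-CoA reductase of the elongation cycle, was at 55.5 and 393 RPKM in standard day 0 and day 7 and at 40.0 and 619 in the N9 pair. Cyb5b, a cytochrome b5, had log2 differences of 1.83 (standard pair) and 2.32 (N9 pair), and Por, an electron donor reductase, had 1.20 and 2.42. The fourth, named after its value was seen, was Tecr, the enoyl-CoA reductase that ends the cycle (1.16 and 1.58). Ptplad2, a dehydratase of the Hacd family, was the lower gene (-1.06 and -3.01). Cyb5r3, the reductase that feeds cytochrome b5 and also named after its values were seen, was at 238 and 258 RPKM in the standard pair and at 320 and 288 in the N9 pair. The list's median was 0.50 and 0.80, and limma passed 0 of its genes. An unadjusted p under 0.05, held by 3014 of all 11474 genes, was found in 5 of 11.

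Substrate supply covers the enzymes that make palmitate and its building blocks. Of 10 substrate supply genes 9 were higher and 0 lower, with medians of 2.40 and 3.63, and limma passed 2. Thrsp, a lipogenic regulator, was listed at 0 in standard day 0 and at 0.106 RPKM in N9 day 0, and was at 24.3 and 80.1 at day 7. Me1, the malic enzyme that yields NADPH, differed by 3.40 and 3.67 and passed limma with an adjusted p of 0.0441, as did Thrsp (0.0447). Acacb, an acetyl-CoA carboxylase, differed by 3.16 and 4.78. Fasn, the synthase that makes palmitate and was named after its values were seen, was at 30.0 and 242 RPKM in the standard pair and 27.8 and 407 in the N9 pair. Elovl6, the next step, was lower in the same libraries.

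Of 13 regulators 7 were higher and 0 lower, with medians of 1.14 and 2.24. Nr1h3, the oxysterol receptor LXR alpha, was at 0.0869 and 24.8 RPKM in the standard pair and at 0.252 and 46.0 in the N9 pair, and was the 1 that passed limma (adjusted p 0.0337). Cebpa, an adipogenic factor, differed by 3.62 and 5.02, and Ppara, a receptor for fatty acids, by 2.28 and 3.25. Srebf1, which encodes the activator of lipogenic genes and was named after its values were seen, was at 8.86 and 30.2 RPKM in the standard pair and 9.20 and 101 in the N9 pair. Its relative Srebf2, named likewise, was at 40.0 and 33.8, and at 48.6 and 30.7.

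Among 11 kept genes for acyl-CoA synthetases and esterification 5 were higher and 0 lower, among them Acsl1, a synthetase that activates long chains (7.22 and 8.45), Agpat2 (6.44 and 7.40) and Dgat2 (4.72 and 6.25), both acyltransferases of triglyceride synthesis. Limma passed 4 of this list, and its medians were 0.82 and 1.41. Of 10 peroxisomal genes 7 were higher and 0 lower, with medians of 2.70 and 3.12, and 1, Ehhadh (5.70 and 6.03), passed limma at 0.0244. Acaa1b, a thiolase, differed by 4.87 and 7.33, and Scp2, which carries a thiolase, by 2.92 and 4.02. Ceramide synthesis, a user of very long chains, had 0 of 9 genes called in either direction in both types, with medians of -0.10 and 0.07. In the N9 pair alone, Sgms1 (1.46) and Cers2 (1.36) were called higher and Cers6 (-2.48) lower, all named after their values were seen. There 13.9% of all genes kept were called higher and 29.9% lower. Limma passed 0 of the 9, with 1 at an unadjusted p under 0.05, against the same 3014 of 11474 genes. Of 7 relatives of the members 4 were kept, with medians of 0.99 and 2.57, and 2, Scd3 and Scd4, were higher and 0 lower. Limma passed 0 of the 4, with 2 at an unadjusted p under 0.05, a number to set against the same share of all genes. Elovl2 and Fads6 were listed at 0 in all 6 libraries. With a pseudocount of 0.1 RPKM limma passed 0 genes of the whole table, these lists included (2336 genes had an unadjusted p under 0.05).

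**Figure D5:**
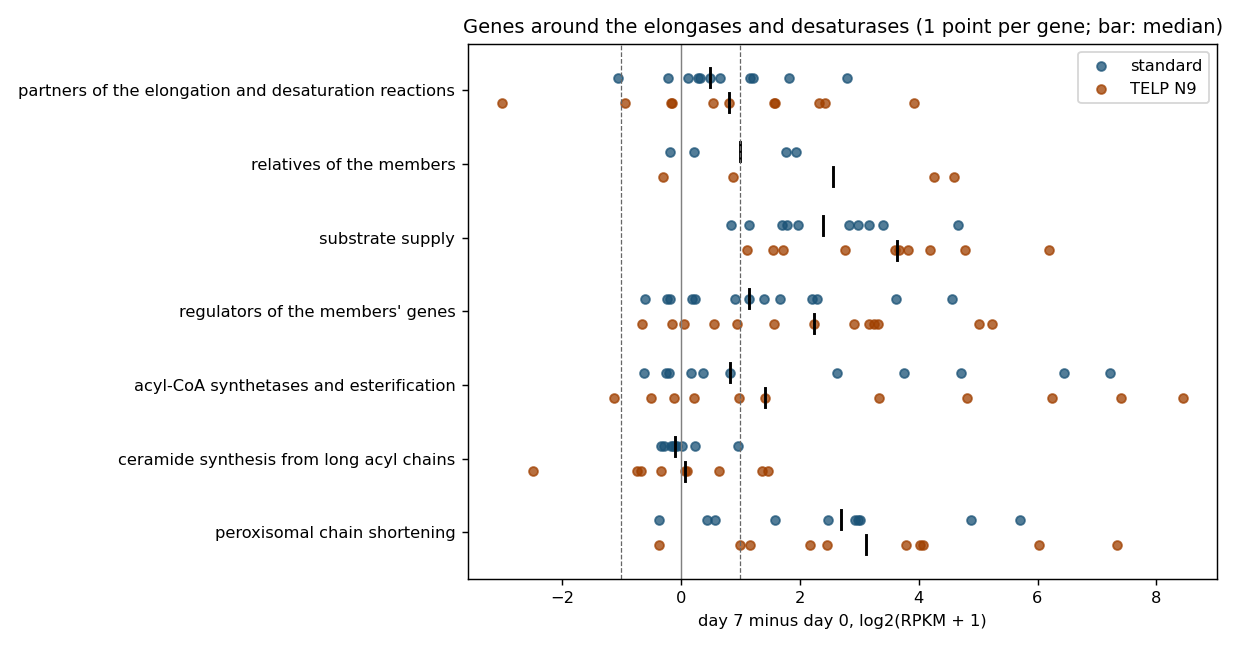
Difference between day 7 and day 0 (x axis, log2(RPKM + 1)) for the kept genes of 7 lists, with 1 point per gene in the standard (blue) and TELP N9 libraries (brown), a bar at each median and dashed lines at 1 unit. Medians of substrate supply are 2.40 and 3.63 and those of ceramide synthesis are -0.10 and 0.07.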

How the data were processed

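Expression was compared in 6 RNA libraries, 1 per group, of a series of 23 samples. The other 17, chromatin libraries, were not analysed here. RPKM values of 24029 genes, already normalized to length and library, were deposited by the authors. Bowtie2, TopHat and Cufflinks with mm9 are named per the submitters' processing notes, while versions, settings, gene annotation and strand are not given in the sources used. Symbols were used as deposited, and 22857 (95.1%) matched a list of mouse gene names. Values were taken as log2(RPKM + 1), which understates changes of low genes, and a gene was kept where its mean in the compared libraries reached 1 RPKM. A difference of at least 1 log2 unit was a call. An exact 0 may be a failed estimate, so such genes are said to be listed at 0. With 1 library per group there is no replicate error. Nothing says that the libraries came from separate cultures.

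Limma 3.58.1 in R 4.3.3 was fitted to 4 libraries with library type as a block and no intensity trend, and p-values were Benjamini-Hochberg adjusted over all genes. Depth came from ratios of low values, whose product round 4 libraries was 1.00004, and from 50 of 373 short genes after deducting 202 bp from each length, so the absolute scale is approximate. Apart from N9_ss against N9, 5.90% to 17.0% of low genes lay at the common ratio of 2 libraries, so whole reads could not be recovered for most genes and no count test was run. The member genes and the lists were chosen with earlier results of these data known. Named list genes were the up to 3 highest and 3 lowest by mean difference among those called alike in both types, and for likeness the 3 nearest genes, with small noncoding RNAs left out. Others are said to have been named after their values were seen. Calls by size and the limma fit were tested on simulated data. Those data held no difference between library types, so they could not test the fit where the types disagree. Alternatives were 0.1 RPKM as pseudocount, filters at 5 RPKM and none, 3 scalings (median of ratios, equal totals, quantile), other day 7 TELP libraries, no block and leaving out each library. Tables and figures were made with Python 3.11.15, pandas 2.3.3 and matplotlib 3.10.9.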

Additional observations from a re-analysis of the deposited data

How the results depend on the processing

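Calls of the members at day 7 against day 0 in the standard libraries kept their side under all 6 alternatives, except that Elovl3 was not kept by a filter at 5 RPKM. In TELP N9, members called lower went from 1 to 2 under equal totals, where 5164 of all 11360 genes kept were lower. T18 in place of N9 gave 1 higher and 5 lower, where 274 and 9351 of all 10775 genes kept were. This exchange turned Scd2 to -0.62, Fads2 to -0.91 and Fads3 to -1.69. It also put Elovl1 at -2.59, from 0.45, and Fads1 at -1.43, from 0.46, and Elovl3 was not kept. For TELP N9 against standard at day 7, members lower were 0 under median of ratios and quantile normalization and 2 under equal totals. Of all 11044 genes kept, 1392, 1205 and 4883 were lower under these scalings, in that order. With T18 in place of N9 there were 0 higher and 7 lower, where 120 and 9332 of all 10503 genes kept were. Elovl3 was then at -2.15, Scd1 at -0.046 and Scd2 at -1.26. For T18 against N9, median of ratios gave 1 higher and 2 lower and quantile normalization 2 and 3. Of all 9753 genes kept, 897 were higher and 1365 lower under median of ratios, and 1096 and 1404 under quantile normalization. Elovl5 turned to 0.99 and 1.04 and Fads1 to 0.26 and 0.20 under these scalings. Members whose differences between library types were called lower went from 1 to 0 under median of ratios and quantile normalization. Over all 11474 genes kept, 1342 and 1187 were lower there, against 1977 as deposited. Within T18 the ratio of Elovl6 to Elovl5 was 0.207 and that of Elovl3 to Elovl6 was 0.0286, against 0.0721 and 12.2 in N9. The cause of these shifts was not tested.

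Members past limma's false discovery rate were 0 to 6 with 1 library and the block left out, 3 under equal totals (Scd1, Elovl3 and Elovl6) and 1 with an intensity trend. Genes past it over the whole table ranged from 0, under a pseudocount of 0.1 RPKM, without a filter, at 5 RPKM, with N9_ss for N9 or with a day 0 library left out, to 953 under equal totals and 6037 without standard day 7 and the block, against 94 as reported. Median of ratios and quantile normalization each gave 29, no block 152 and an intensity trend 186. The limma block on library type pairs the days within a type. By replicate number, no paired analysis was possible because each RNA group holds 1 library and its labels carry no such number. Depth limits Elovl7 in the TELP libraries of day 7 and Elovl3 in T18, which may rest on as little as 1 read where they are not at 0.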

Other observations

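The Scd genes stand side by side on chromosome 19 in the order Scd3, Scd2, Scd4 and Scd1 among protein-coding genes of RefSeq (GRCm38.p6), and Fads3, Fads2 and Fads1 form another run on the same chromosome. The flanking genes were set beside them after the values were seen, the nearest 2 on each side. Around the Scd run, Pkd2l1, Wnt8b and Sec31b were under 1 RPKM, and Bloc1s2 differed by -0.35 and -0.63 log2 units between days in the standard and N9 pairs. Around the Fads run, Best1 was under 1 RPKM. Rab3il1, beside Fads3, was at 15.9 and 9.36 RPKM on the 2 days of the standard pair and at 14.4 and 1.20 on those of the N9 pair. Fen1, beside Fads1, was at 3.87 and 6.67, and at 3.69 and 2.44. Tmem258, the next gene, differed by 0.56 and 1.05. Pkd2l1, Wnt8b, Sec31b and Best1 were not kept by the filter, so they could not be called. Of the other flanking genes 0 were called in the same direction in both library types. Over all genes 7.23% were called higher and 5.81% lower in both, and these are too few genes to set against that share.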
